A study of Mus musculus with 9 samples.

Results

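Transcripts of 10 genes that present peptides on major histocompatibility complex (MHC) class I were followed in RAW264.7 cells. The genes were chosen by name from a list of class I molecules and their partners, and all 10 were found by symbol among the 43629 genes of the deposited files. They are the heavy chains H2-K1, H2-D1, H2-Q4, H2-M3 and H2-T24, the light chain B2m, the peptide transporter genes Tap1 and Tap2, the loading factor Tapbp and the transactivator Nlrc5. All 10 passed the filter on low values and were tested.

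RAW264.7 is a single mouse line with macrophage features that was immortalised with Abelson murine leukaemia virus. Bulk RNA was sequenced from 9 libraries in 3 groups of 3: untreated cells (Control), cells given the bacterial endotoxin lipopolysaccharide (LPS), and cells given LPS and sodium butyrate (LPS+NaBu). NaBu, the salt of a short-chain fatty acid, is an inhibitor of histone deacetylases, and the design text of the series describes it as a pretreatment. Cells given NaBu without LPS were not analysed here, and the labels state neither dose nor time. The design text calls the replicates biological but names no separate cultures, so the p-values reflect a spread among libraries that may be technical in part.

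Class I molecules display peptides of the cell's own proteins to CD8 T cells. The proteasome cuts the proteins, the TAP transporter carries the peptides into the endoplasmic reticulum, and tapasin holds the transporter next to an empty heavy chain paired with beta-2-microglobulin until a peptide binds. H2-K1 and H2-D1 encode the classical heavy chains, while the H2-Q, H2-T and H2-M genes encode non-classical ones with narrower roles. In macrophages, LPS raises the pathway partly through NF-kB and partly through interferon that the cells secrete, and Nlrc5 acts at the class I promoters through a conserved module of sites.

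The sites of that module were looked for in the RefSeq promoters (GRCm38.p6, 250 bases before to 50 after the start site), which held 7 of the 10 genes: H2-K1, H2-D1, H2-Q4, H2-M3, B2m, Tap1 and Tapbp. The stretches below are shown because they carry the sites through which class I genes are known to be controlled. Capitals mark, from left to right, the NF-kB consensus, the interferon-response motif TTTCACTT, and the letters TGAC and ATTGG that belong to the X2 and Y boxes bound with Nlrc5.
H2-K1: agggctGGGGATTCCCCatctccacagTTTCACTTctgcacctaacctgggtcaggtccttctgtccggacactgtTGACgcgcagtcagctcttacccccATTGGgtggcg
H2-D1: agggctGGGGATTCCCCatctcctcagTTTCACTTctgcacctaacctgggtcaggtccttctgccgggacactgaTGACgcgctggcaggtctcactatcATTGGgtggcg
H2-Q4: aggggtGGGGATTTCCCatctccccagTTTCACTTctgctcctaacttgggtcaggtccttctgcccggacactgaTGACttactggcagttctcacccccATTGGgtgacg
H2-M3: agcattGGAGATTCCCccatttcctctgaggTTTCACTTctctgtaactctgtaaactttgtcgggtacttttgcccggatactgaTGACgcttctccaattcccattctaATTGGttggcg
B2m: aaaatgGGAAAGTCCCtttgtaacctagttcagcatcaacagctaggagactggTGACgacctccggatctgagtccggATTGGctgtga
The stretches lie at chr17:34000353-34000464 on the minus strand for H2-K1, and on the plus strand at chr17:35262917-35263028 for H2-D1, chr17:35379437-35379548 for H2-Q4, chr17:37270102-37270223 for H2-M3 and chr2:122147555-122147644 for B2m. In 4 of the 7 promoters, those of H2-K1, H2-D1, H2-Q4 and H2-M3, all 3 marked motifs were found, and B2m lacked only TTTCACTT. None of the motifs was found in the windows of Tap1 and Tapbp. Both strands were searched. Among 32544 promoters of the same length, 8.49% held the NF-kB consensus, 1.61% held TTTCACTT and 0.246% held TGAC followed after 21 bases by ATTGG. The spacing of 21 bases was set after these sequences had been read. The gamma-activated element TTCNNNGAA, held by 8.33% of promoters, was found in H2-M3 only of the 7. A match describes letters, and binding was not measured here.

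**Figure D1:**
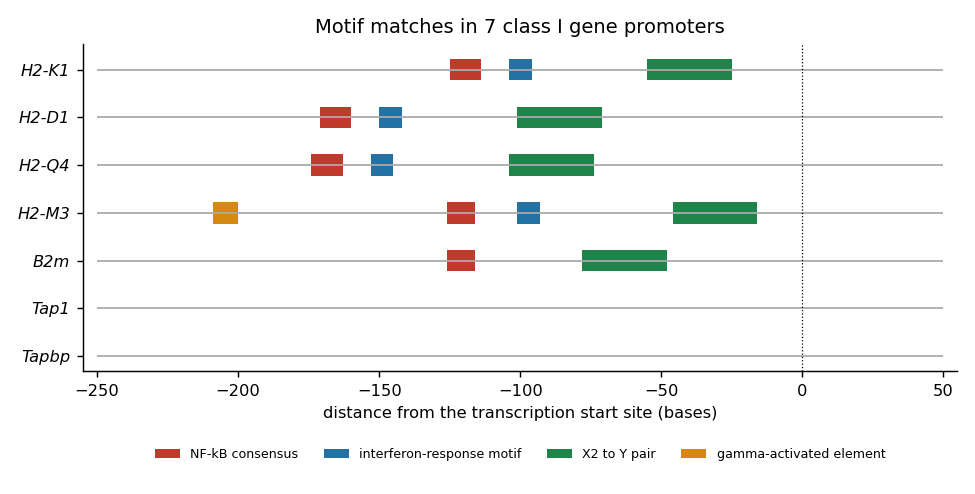
Motif matches in the promoters of 7 class I genes, with the distance from the transcription start site in bases along the horizontal axis and 1 line per gene. H2-K1, H2-D1, H2-Q4 and H2-M3 carry the NF-kB consensus, the interferon-response motif and the X2 to Y pair in the same order, whereas the lines of Tap1 and Tapbp are empty.

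Values are normalised counts, that is, gene counts divided by 1 size factor per library, with no correction for gene length. With LPS against Control, all 10 genes rose, and the libraries of both groups did not overlap for any of them. Calls were made below an adjusted p of 0.05 (limma on log2(normalised count + 1), Benjamini-Hochberg over 14808 genes). In this comparison 25.2% of all genes tested were called higher, and 27.4% had every LPS library above every Control library. For 9 of the 10 genes the called rise was 1 or more on the log2 scale, against 8.41% of all genes tested. This count was 8 with libraries scaled to the same sum, against 6.78% of all genes. It was 6 with quantile normalization, against 7.27% of all genes, where H2-K1, H2-D1 and B2m fell below 1. The median log2 change of the 10 genes was 1.83, and that of all genes tested was -0.05. In bulk RNA, fewer cells of a type and less RNA per cell cannot be told apart.

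With LPS+NaBu against LPS, 8 of the 10 genes fell. None was called higher by limma, edgeR or DESeq2 or was higher at an unadjusted p under 0.05, though H2-K1 and H2-D1 were called higher under the other scalings given below. Of all genes tested, 37.8% were called lower and 40.2% higher. The 8 had every LPS+NaBu library below every LPS library, as had 38.1% of all genes. For 6 genes the called fall was 1 or more on the log2 scale, against 16% of all genes. This count was 4 with libraries scaled to the same sum, without Tapbp and Nlrc5, against 11.6% of all genes. It was 5 with quantile normalization (20.4% of all genes), without LPS replicate 2 (16.1%) or without LPS+NaBu replicate 3 (16.2%). The genes did not move alike: H2-K1 and H2-D1 kept most of their LPS level, H2-Q4 lost some of it, B2m, Tapbp, Nlrc5, Tap1 and Tap2 lay between LPS and Control, and H2-M3 and H2-T24 lay below Control. With LPS+NaBu against Control, 8 of the 10 were higher and 2 lower, where 40.9% of all genes tested were called higher and 35.1% lower. These comparisons share libraries, so the values of each are given side by side below.

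**Figure D2:**
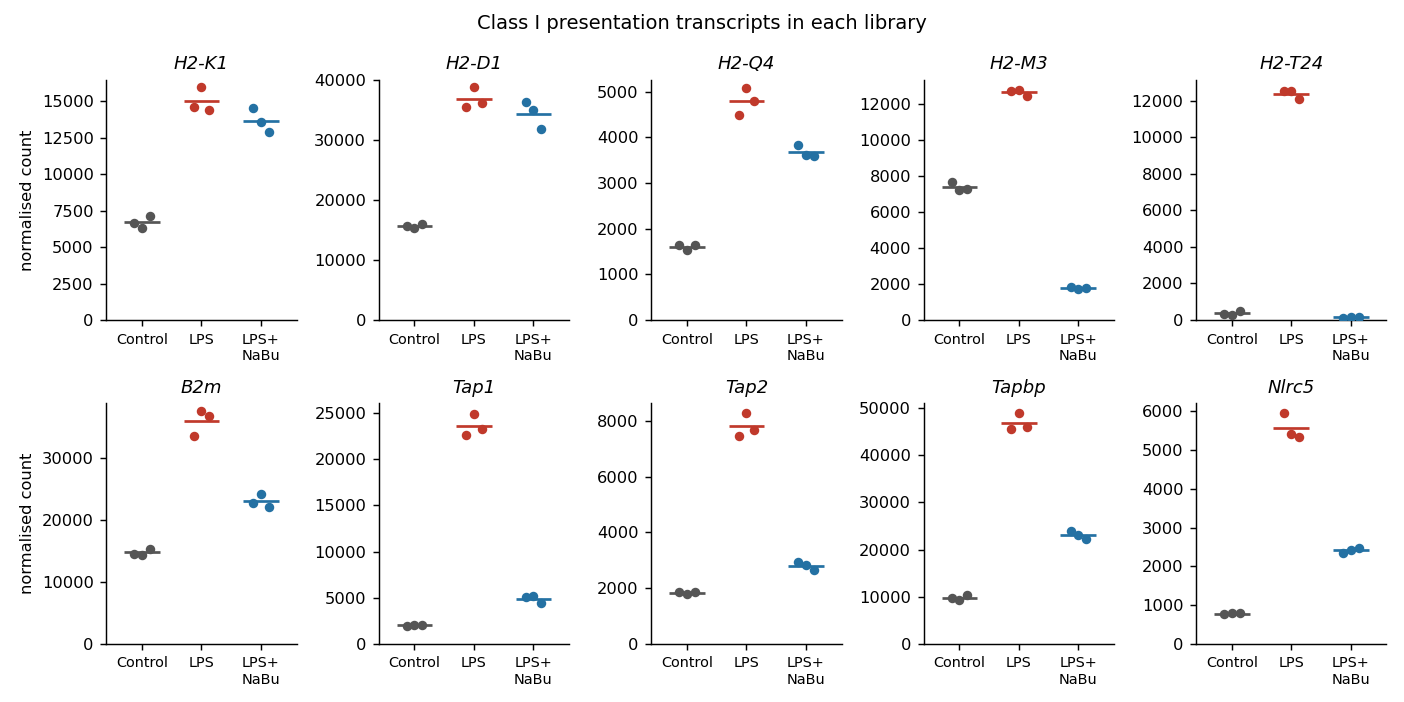
Normalised counts (vertical axes from 0, scaled per gene) of the 10 class I genes in every library, with a point per library and a line at the mean of each group of 3. LPS libraries are the highest for every gene except H2-K1 and H2-D1, whose LPS and LPS+NaBu libraries overlap, while H2-M3 and H2-T24 are lowest with LPS+NaBu.

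The classical heavy chain H2-K1 (ENSMUSG00000061232, chr17:34214987-34219321, minus strand, GRCm39) presents peptides to CD8 T cells. Its normalised counts were 6633, 6308 and 7117 in Control, 14597, 15975 and 14407 with LPS, and 14512, 13569 and 12906 with LPS+NaBu. All 6 libraries with LPS lay above Control, and the LPS and LPS+NaBu libraries overlapped. H2-K1 rose 2.24-fold with LPS (log2 change 1.17 ± 0.059, SE, adjusted p = 2.34e-09). With LPS+NaBu it remained 2.04-fold above Control (1.03 ± 0.059, adjusted p = 3.06e-09).

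The other classical heavy chain, H2-D1 (ENSMUSG00000073411, chr17:35481691-35486475, plus strand), showed the same order of groups at a higher count. The values were 15587, 15303 and 16027 in Control, 35441, 38863 and 36128 with LPS, and 36409, 34940 and 31863 with LPS+NaBu. The LPS+NaBu libraries again overlapped with the LPS libraries and not with Control. H2-D1 rose 2.35-fold with LPS (1.23 ± 0.055, adjusted p = 5.65e-10) and was 2.20-fold above Control with LPS+NaBu (1.14 ± 0.055, adjusted p = 5.04e-10).

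Between LPS+NaBu and LPS neither classical heavy chain passed the test. The log2 change was -0.13 for H2-K1 (95% interval -0.26 to -0.0052, adjusted p = 0.0545) and -0.10 for H2-D1 (95% interval -0.22 to 0.020, adjusted p = 0.116). The sign of this small difference depended on the scaling: both genes were called lower with TMM in edgeR (-0.24 and -0.20) and called higher when libraries were scaled to the same sum (0.14 and 0.18) or quantile-normalised (0.22 and 0.43). The normalised counts summed to 52.5 to 53.4 M in the LPS libraries and to 43.1 to 44.3 M in the LPS+NaBu libraries. Scaling to the same sum moved the median of all genes by 0.28 in this comparison and by -0.23 in LPS against Control. Of the LPS-induced gain over Control, the LPS+NaBu libraries held 74.9% to 94.2% for H2-K1 and 76.6% to 98.1% for H2-D1, and more than all of it under both other scalings (113% to 133% and 113% to 137% with the same sum). Here and below, this share only places a library relative to the Control and LPS means. Without cells given NaBu alone, a kept LPS gain and an effect of NaBu itself cannot be told apart.

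The light chain B2m (ENSMUSG00000060802, chr2:121977957-121983594, plus strand) encodes beta-2-microglobulin, which nearly every class I heavy chain needs to reach the surface. Its counts were 14513, 14398 and 15373 in Control, 33549, 37674 and 36758 with LPS, and 22705, 24209 and 22084 with LPS+NaBu. The 3 groups did not overlap, and the LPS+NaBu libraries lay between the others. B2m rose 2.44-fold with LPS (1.28 ± 0.054, adjusted p = 3.13e-10), fell 1.56-fold with LPS+NaBu against LPS (-0.65 ± 0.054, adjusted p = 1.21e-07) and was still 1.56-fold above Control (0.64 ± 0.054, adjusted p = 1.46e-07). The LPS+NaBu libraries held 34.5% to 44.5% of its LPS-induced gain. With quantile normalization they held 76.6% to 88.3%, and the fall against LPS was -0.14.

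Among the non-classical heavy chains H2-Q4, H2-M3 and H2-T24, H2-Q4 (ENSMUSG00000035929, chr17:35598586-35604274, plus strand) stayed closest to the classical ones. It was counted at 1645, 1533 and 1652 in Control, at 4480, 5086 and 4799 with LPS, and at 3840, 3605 and 3604 with LPS+NaBu. The LPS+NaBu libraries lay below all LPS libraries and well above Control. H2-Q4 rose 2.97-fold with LPS (1.57 ± 0.056, adjusted p = 6.38e-11) and fell 1.30-fold with LPS+NaBu against LPS (-0.38 ± 0.056, adjusted p = 3.89e-05), a call lost under scaling to a common sum (-0.10, adjusted p = 0.0918). It held 62.7% to 70.2% of its gain and was 2.29-fold above Control (1.19 ± 0.056, adjusted p = 4.15e-10). The gain held was 84.9% to 93.5% with libraries scaled to the same sum and 72.8% to 80.0% with quantile normalization.

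H2-M3 (ENSMUSG00000016206, chr17:37581106-37585384, plus strand) presents N-formylated peptides, which bacteria and mitochondria make. Its counts were 7700, 7207 and 7270 in Control, 12755, 12811 and 12458 with LPS, and 1857, 1722 and 1779 with LPS+NaBu. No groups overlapped, and here the LPS+NaBu libraries were the lowest. H2-M3 had the smallest LPS rise of the 10 genes, 1.71-fold (0.78 ± 0.045, adjusted p = 7.50e-09). It fell 7.10-fold with LPS+NaBu against LPS (-2.83 ± 0.045, adjusted p = 2.82e-14), to 4.14-fold below Control (-2.05 ± 0.045, adjusted p = 2.94e-13). Its promoter carries the same 3 motifs as those of H2-K1, H2-D1 and H2-Q4, as printed above. Of the 7 promoters searched, only that of H2-M3 also held the gamma-activated element. Whether these sites bear on the fall of H2-M3 was not tested.

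H2-T24 (ENSMUSG00000053835, chr17:36314363-36331485, minus strand), a heavy chain gene of the T region, moved the furthest in both directions. It was counted at 312, 289 and 478 in Control, at 12527, 12514 and 12115 with LPS, and at 135, 158 and 149 with LPS+NaBu. The LPS libraries stood far above all others, and the LPS+NaBu libraries lay below Control. H2-T24 rose 34.4-fold with LPS (5.14 ± 0.15, adjusted p = 5.73e-12). With LPS+NaBu it was 83.9-fold below LPS (-6.38 ± 0.15, adjusted p = 4.27e-13) and 2.44-fold below Control (-1.25 ± 0.15, adjusted p = 3.89e-06).

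**Figure D3:**
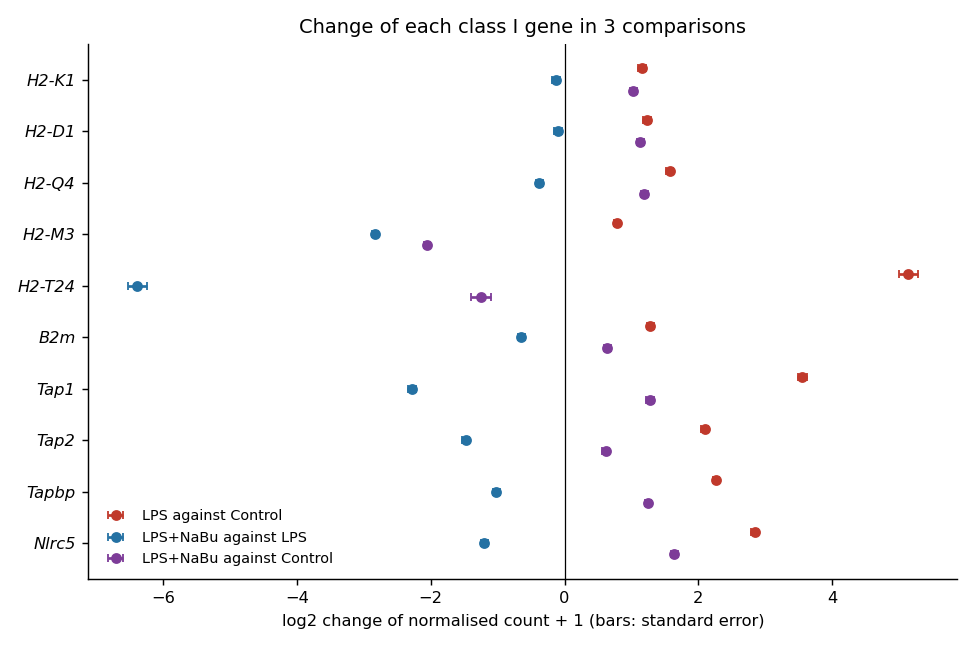
Log2 change of normalised count + 1 (horizontal axis) of the 10 class I genes in 3 comparisons, with bars for the standard error from the limma fit over 9 libraries. The points for LPS against Control all lie above 0, those for LPS+NaBu against LPS run from -6.38 for H2-T24 to -0.10 for H2-D1, and those for LPS+NaBu against Control are below 0 for H2-M3 and H2-T24 only.

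Tap1 and Tap2 encode the subunits of the peptide transporter. Tap1 (ENSMUSG00000037321, chr17:34405996-34416199, plus strand) was counted at 1922, 2043 and 2064 in Control, at 22665, 24912 and 23331 with LPS, and at 5041, 5227 and 4396 with LPS+NaBu. Tap2 (ENSMUSG00000024339, chr17:34422501-34435829, plus strand) was counted at 1868, 1772 and 1840 in Control, at 7475, 8301 and 7665 with LPS, and at 2924, 2826 and 2653 with LPS+NaBu. For both genes the 3 groups were apart, and the LPS+NaBu libraries lay nearer to Control than to LPS. The LPS rise was 11.8-fold for Tap1 (3.55 ± 0.063, adjusted p = 5.09e-14) and 4.28-fold for Tap2 (2.09 ± 0.054, adjusted p = 2.14e-12). Tap1 fell 4.84-fold with LPS+NaBu against LPS (-2.28 ± 0.063, adjusted p = 2.33e-12) and Tap2 fell 2.79-fold (-1.48 ± 0.054, adjusted p = 2.82e-11). Above Control there remained 2.43-fold for Tap1 (1.28 ± 0.063, adjusted p = 6.69e-10) and 1.53-fold for Tap2 (0.62 ± 0.054, adjusted p = 2.20e-07). The LPS+NaBu libraries held 11.0% to 14.9% of the gain of Tap1 and 13.8% to 18.3% of that of Tap2.

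Tapbp (ENSMUSG00000024308, chr17:34134873-34148267, plus strand) encodes tapasin, which bridges the transporter and the heavy chain and edits the bound peptide. Its counts were 9624, 9338 and 10296 in Control, 45585, 49035 and 46082 with LPS, and 24034, 23172 and 22215 with LPS+NaBu. The LPS+NaBu libraries lay between the other groups without overlap. Tapbp rose 4.81-fold with LPS (2.27 ± 0.050, adjusted p = 4.86e-13), fell 2.03-fold with LPS+NaBu against LPS (-1.02 ± 0.050, adjusted p = 5.54e-10) and was 2.37-fold above Control (1.25 ± 0.050, adjusted p = 8.56e-11). It held 33.5% to 38.4% of its gain. With quantile normalization it held 58.5% to 63.4%, and the fall against LPS was -0.49.

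The transactivator Nlrc5 (ENSMUSG00000074151, chr8:95160984-95253900, plus strand) drives class I heavy chains, B2m, Tap1 and the immunoproteasome gene Psmb9. It was counted at 756, 785 and 781 in Control, at 5944, 5416 and 5338 with LPS, and at 2348, 2431 and 2483 with LPS+NaBu. Again the LPS+NaBu libraries lay between the others. Nlrc5 rose 7.19-fold with LPS (2.84 ± 0.054, adjusted p = 9.11e-14), fell 2.30-fold with LPS+NaBu against LPS (-1.20 ± 0.054, adjusted p = 2.10e-10) and was 3.13-fold above Control (1.64 ± 0.054, adjusted p = 1.12e-11), the largest excess over Control of the 10 genes. It held 32.9% to 35.7% of its gain, and 40.9% to 46.1% with libraries scaled to the same sum.

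Levels of different genes were compared per kilobase of annotated exon. In Control, B2m was the highest at 7009 ± 253 normalised counts per kb (SD, n = 3), followed by H2-D1 (5227 ± 122) and H2-M3 (4057 ± 147). Tapbp (2212 ± 112) and H2-K1 (2099 ± 128) did not differ beyond their spread, nor did the lowest pair, Nlrc5 (91.1 ± 1.83) and H2-T24 (73.6 ± 21.1). H2-Q4 (458 ± 19.0), Tap2 (383 ± 10.4) and Tap1 (335 ± 12.7) came between. With LPS the order per kb was B2m (17091 ± 1028), H2-D1 (12303 ± 605), Tapbp (10638 ± 423), H2-M3 (6957 ± 104), H2-K1 (4707 ± 269), Tap1 (3935 ± 192), H2-T24 (2535 ± 48.0), Tap2 (1639 ± 90.8), H2-Q4 (1363 ± 86.2) and Nlrc5 (655 ± 38.8). No neighbours in that order overlapped. With LPS+NaBu, H2-D1 (11499 ± 775) and B2m (10921 ± 519) overlapped at the top. Tapbp (5248 ± 206) and H2-K1 (4290 ± 253) followed, then H2-Q4 (1049 ± 38.7), H2-M3 (980 ± 37.1), Tap1 (814 ± 72.6), Tap2 (588 ± 28.8), Nlrc5 (285 ± 7.98) and H2-T24 (30.2 ± 2.36).

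Ratios within a library do not change when a whole library is multiplied by 1 factor, though quantile normalization changes them. The ratio of H2-K1 to Tap1, per kb, was 6.51, 5.82 and 6.50 in Control, 1.21, 1.21 and 1.16 with LPS, and 5.43, 4.90 and 5.54 with LPS+NaBu. It was thus lowest in the LPS libraries, and the LPS+NaBu libraries lay just under Control. The difference between LPS+NaBu and LPS was 2.14 on the log2 scale. The ratio of H2-K1 to B2m was 0.302, 0.290 and 0.306 in Control, 0.288, 0.280 and 0.259 with LPS, and 0.423, 0.371 and 0.386 with LPS+NaBu, which made the LPS+NaBu libraries the highest. With quantile normalization the log2 difference of this ratio went from 0.51 to 0.36 for LPS+NaBu against LPS and from -0.12 to -0.0022 for LPS against Control. Tap1 to Tap2 was 0.816, 0.915 and 0.890 in Control, 2.41, 2.38 and 2.42 with LPS, and 1.37, 1.47 and 1.31 with LPS+NaBu, so that the transcripts of the transporter's subunits did not change in proportion. Tap1 shares 12.4% of its exonic bases with Psmb9 on the opposite strand, and the strand setting at counting is open. H2-T24 to H2-K1 ranged from 0.0299 to 0.0438 in Control libraries, from 0.511 to 0.560 in LPS libraries and from 0.00609 to 0.00761 in LPS+NaBu libraries. H2-M3 to H2-K1 ranged from 1.79 to 2.03, from 1.40 to 1.53 and from 0.222 to 0.241 in the same order. For each of these 5 ratios and each of the 3 comparisons, a two-sided exact permutation test gave p = 0.1 (15 tests, Benjamini-Hochberg adjusted p = 0.1), the smallest p that 3 against 3 libraries allow. The groups were therefore fully separated, but this test could not pass 0.05. The 5 ratios were not planned beforehand, so their separation only describes these libraries.

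**Figure D4:**
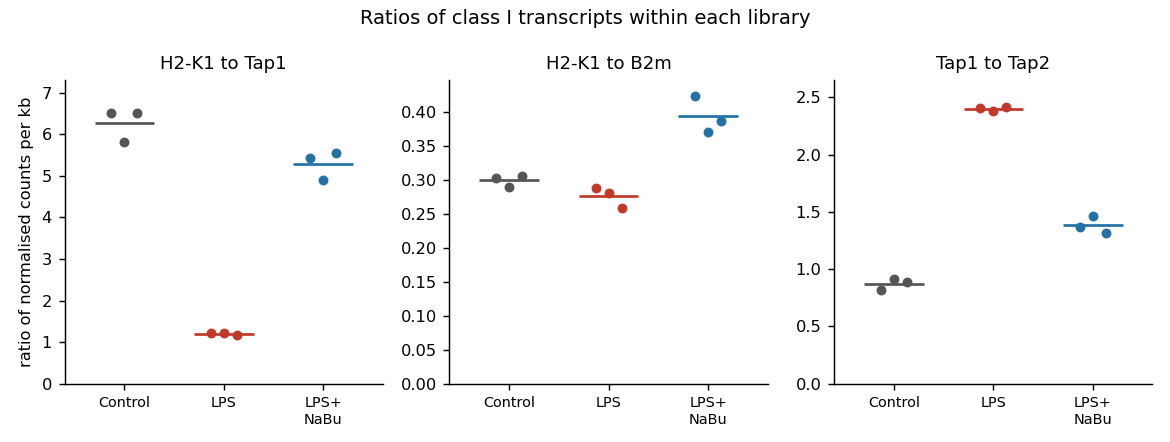
Ratios of normalised counts per kb (vertical axes from 0) between pairs of class I transcripts within each library, with a point per library and a line at the mean of each group of 3. H2-K1 to Tap1 is lowest with LPS, between 1.16 and 1.21, H2-K1 to B2m is highest with LPS+NaBu, and Tap1 to Tap2 is highest with LPS.

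The other genes of the pathway were taken from 4 lists that hold none of the 10 genes: other class I and class I-like heavy chains, peptide trimming and loading, the immunoproteasome, and regulators. Of 49 listed genes, 43 were tested. With LPS against Control 25 rose and 5 fell, with a median log2 change of 0.51, where 25.2% of all genes tested rose and 30.8% fell. The 5 that fell became 15 with libraries scaled to the same sum, 11 with quantile normalization and 8 with DESeq2. With LPS+NaBu against LPS 11 rose and 23 fell (median -0.47, all genes tested 0.02), or 25.6% and 53.5%, against 40.2% and 37.8% of all genes tested. With libraries scaled to the same sum 17 rose. The shares of all genes tested under these other settings were not compared. Scaling to the same sum moved the median of all genes by -0.23 with LPS against Control. It moved that median by 0.28 with LPS+NaBu against LPS, so these other counts are not read as results about the lists. With LPS+NaBu against Control 25 were higher and 10 lower (median 0.29, all genes tested 0.09), where 40.9% of all genes tested were higher and 35.1% lower. Ciita and H2-T3, which passed the filter only through the LPS+NaBu libraries, are among these 25 and among the 11 above.

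The immunoproteasome subunits, which replace or cap the standard proteasome after interferon and change the peptides it cuts, all rose with LPS (5 of 5) and all fell with LPS+NaBu against LPS (5 of 5). Of all genes tested, 25.2% rose with LPS and 37.8% fell with LPS+NaBu against LPS. The 5 subunits parted in how far they fell. Psmb10 went from 1799 ± 57.4 in Control to 10090 ± 950 with LPS and 553 ± 64.3 with LPS+NaBu, 3.25-fold below Control (adjusted p = 5.56e-10). Psmb8 (4604 ± 223, 13820 ± 1100 and 4792 ± 153 in the same order) and the cap subunit Psme1 (3838 ± 352, 12026 ± 985 and 3833 ± 152) did not pass the test against Control with LPS+NaBu (adjusted p = 0.377 and 0.985). Psmb9 (1006 ± 73.1, 5050 ± 417 and 2985 ± 108) and the cap subunit Psme2 (3139 ± 245, 10879 ± 1316 and 5526 ± 248) stayed above Control (adjusted p = 1.95e-10 and 6.08e-07). Psmb9 and Tap1 are neighbours on chromosome 17 and overlap on opposite strands over 12.4% of the exonic bases of Tap1.

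Among the other heavy chains, 10 of 14 tested rose with LPS and 3 fell, where 25.2% of all genes tested rose and 30.8% fell. Between LPS+NaBu and LPS 6 fell and 4 rose, where 37.8% of all genes tested fell and 40.2% rose. H2-T23, which encodes the Qa-1 molecule seen by natural killer cell receptors, went from 1382 ± 270 in Control to 12458 ± 623 with LPS and 1201 ± 79.4 with LPS+NaBu, the last not called against Control (adjusted p = 0.121). H2-M2, a heavy chain gene of the M region, rose from a mean of 6.78 ± 5.87 in Control to 537 ± 98.5 with LPS, and the LPS+NaBu libraries held 41.3, 46.8 and 29.0. Mr1, which presents vitamin B metabolites to MAIT cells, and Fcgrt, the neonatal Fc receptor that recycles antibody and albumin, moved the other way. Mr1 had a mean of 333 ± 53.8 in Control that fell to 172 ± 24.5 with LPS and reached 1890 ± 50.7 with LPS+NaBu, 5.67-fold above Control (adjusted p = 6.55e-10). Fcgrt was 398 ± 1.05, 202 ± 26.9 and 1485 ± 65.9 in the same order, 3.73-fold above Control (adjusted p = 1.07e-09). H2-T3 was at 0 in all Control libraries, held 1 read over all LPS libraries and reached 18.6, 21.2 and 16.3 with LPS+NaBu. H2-T3 passed the filter on low values only through the LPS+NaBu libraries. Its place among the 4 that rose follows from that filter and carries no weight. H2-Q1 (log2 change 0.03, 95% interval -0.25 to 0.31) and H2-Q7 (-0.12, 95% interval -0.45 to 0.22) were not called between LPS+NaBu and LPS.

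In the loading list, 3 of 10 rose and 2 fell with LPS, shares near those of all genes tested (25.2% and 30.8%). Between LPS+NaBu and LPS 3 rose and 5 fell, where 40.2% and 37.8% of all genes did. Erap1, the peptidase that trims peptides in the endoplasmic reticulum, went from 2314 ± 71.0 in Control to 5150 ± 257 with LPS and 677 ± 28.1 with LPS+NaBu, 3.42-fold below Control (adjusted p = 7.75e-12). Tapbpl, the tapasin-related peptide editor TAPBPR, went from 302 ± 35.7 to 948 ± 31.5 and 369 ± 53.6. Among general folding factors, the disulphide isomerase Pdia3 fell by 0.64 on the log2 scale and the glucosidase subunit Ganab fell by 0.56 with LPS+NaBu against LPS, and the glucosyltransferase Uggt1 rose by 0.54. Pdia6 (0.05, adjusted p = 0.316) and Sec61b (-0.01, adjusted p = 0.922) were not called.

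Of the 14 regulators, 7 rose with LPS, where 25.2% of all genes tested rose. With LPS+NaBu against LPS 4 rose and 7 fell, where 40.2% of all genes rose and 37.8% fell. Nfkb1, an NF-kB subunit, went from 4233 ± 113 in Control to 19220 ± 396 with LPS and 4891 ± 85.8 with LPS+NaBu. The subunits of the RFX complex, which binds the same promoter module as Nlrc5, were split with LPS+NaBu against LPS. Rfx5 fell (797 ± 44.5, 1076 ± 60.2 and 576 ± 52.8 in Control, LPS and LPS+NaBu). Rfxank rose (269 ± 29.4, 297 ± 45.4 and 630 ± 52.3), as did Rfxap (496 ± 15.4, 465 ± 31.6 and 685 ± 54.4). Irf2, an interferon-regulatory factor, fell by 0.91 on the log2 scale with LPS+NaBu against LPS. Ciita, the class II transactivator related to Nlrc5, was at 1.59, 0 and 0 in Control, at 0 in all LPS libraries and at 12.4, 22.3 and 20.9 with LPS+NaBu. Ciita passed the filter on low values only through the LPS+NaBu libraries. Its place among the 4 that rose follows from that filter and carries no weight. Creb1 (0.21, adjusted p = 0.104) and Nfyb (0.15, adjusted p = 0.0694) were not called. The transcription factor Irf1, chosen after its values were seen, stayed closer to LPS than to Control with LPS+NaBu. Its means were 655 ± 53.7, 3680 ± 153 and 3261 ± 244 in Control, LPS and LPS+NaBu. It fell by 0.18 on the log2 scale with LPS+NaBu against LPS (adjusted p = 0.0376). Scaling to the same sum moved the median of all genes by 0.28 in this comparison, more than this fall. The sign of the Irf1 change may therefore depend on the scaling.

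**Figure D5:**
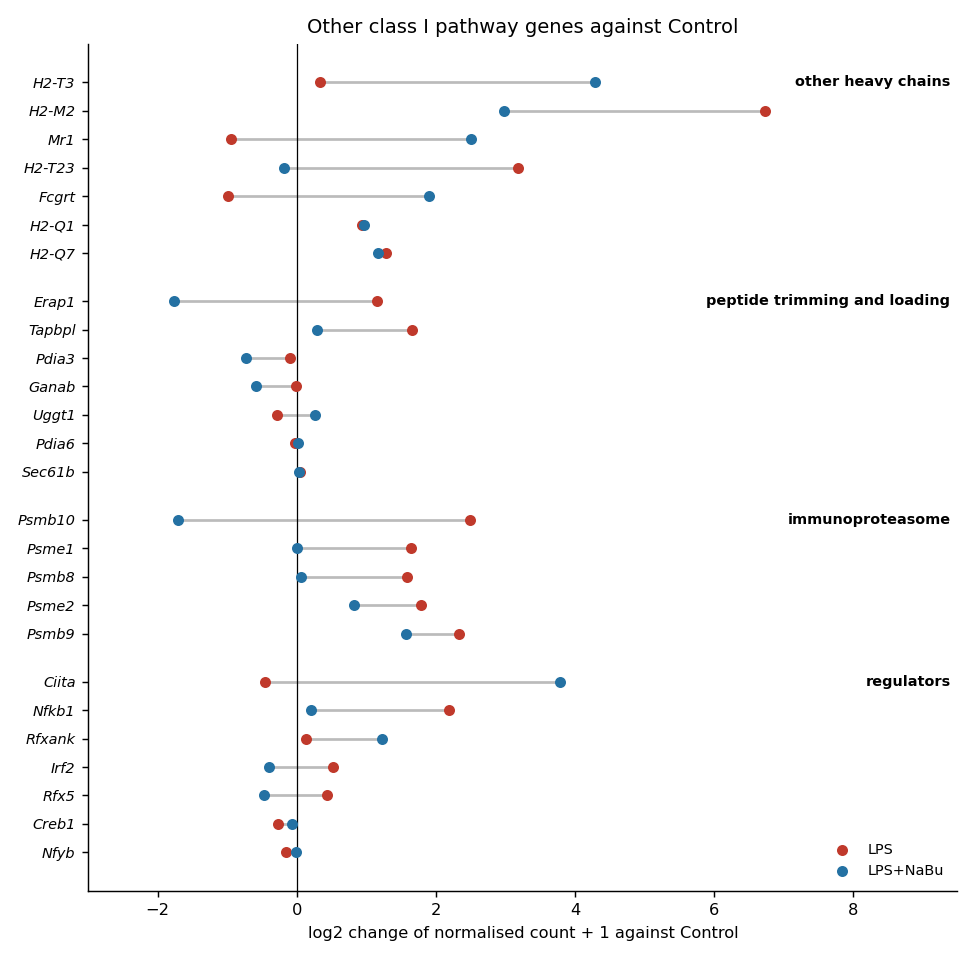
Log2 change against Control of normalised count + 1 (horizontal axis) for the other class I pathway genes named in the text except Irf1 and Rfxap, with a red point for LPS and a blue point for LPS+NaBu joined by a line. Among the genes that cross, Psmb10, Erap1, Rfx5 and Irf2 go from above to below Control, and Mr1, Fcgrt and Uggt1 go from below to above. H2-T23, Psmb8 and Psme1 end near 0.

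The sum of the macrophage markers, the largest part of it Lyz2, moved with the groups, although single markers went different ways. The summed normalised count over 10 of 10 genes ranged from 462980 to 480392 in Control libraries, from 638101 to 677521 in LPS libraries and from 217158 to 235520 in LPS+NaBu libraries. Of the 10, Mertk was at 0 to 3.18 outside LPS+NaBu, and the other 9 were at 283 or above in every library. Csf1r fell with LPS (42034 to 43833 in Control, 24519 to 25606 with LPS), and Adgre1 stayed above Control with LPS+NaBu (5686 to 5964 against 3529 to 4009). The marker sums of 2 other cell types also rose with LPS and were lowest with LPS+NaBu. The 6 T cell markers summed to 435 to 486 in Control, 1302 to 1474 under LPS and 225 to 238 under LPS+NaBu, nearly all of it Lck, while Cd3e, Cd3g, Cd3d and Cd8a stayed at or under 6.36. The 6 dendritic cell markers summed to 8481 to 9234, 11440 to 12112 and 4354 to 5057 in the same order, most of it Itgax. Xcr1 went from at most 27.0 in Control to between 710 and 729 with LPS and 11.2 to 28.1 with LPS+NaBu. Zbtb46 went the other way (74.0 to 85.5, 52.1 to 54.0 and 444 to 536). Ccr7 did so too (at most 2.01, 0, and 33.5 to 57.8), and Flt3 and Clec9a stayed at or under 6.04. The 5 B cell markers summed to 74.9 to 104 with LPS, of which Pax5 held 72.0 to 95.2, and to 46.3 to 56.4 with LPS+NaBu, and were lower in Control. Cd79a (17.8 to 23.4) and Cd79b (17.8 to 24.5) were highest with LPS+NaBu. The 5 neutrophil markers, mostly S100a8, summed to 18.1 to 23.9, 96.2 to 112 and 35.1 to 44.4, and the 3 endothelial markers to 24.6 to 59.3 with LPS and 40.6 to 61.7 with LPS+NaBu, with less in Control. Ms4a1 (B cell), S100a9 (neutrophil) and the hepatocyte markers Alb and Ttr were at 0 in all 9 libraries. The 5 fibroblast markers summed to 268 to 296 with LPS+NaBu and to 6.36 to 16.4 in the other libraries. The part of these shifts in the class I results was not tested. Recovered reads ranged from 37.6 to 64.4 M per library.

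Some values carry limits of identity. RAW264.7 derives from BALB/c mice, whose class I genes (haplotype H-2d) differ in sequence and in number from those of the reference strain C57BL/6, so reads of a class I gene that the reference lacks may have been counted on a similar gene such as H2-D1. Of all 100-base windows of the member's transcript, 26.5% for H2-D1, 25.2% for Tapbp, 18.4% for H2-K1 and 17.9% for H2-Q4 also occurred in transcripts of other genes, against 0% for B2m, H2-M3, H2-T24 and Nlrc5. For each of the 4 the gene sharing most of them was an antisense transcript, and H2-D1 also shared windows with H2-Q1, H2-T9 and H2-T23. Tapbp shares 20.9% of its exonic bases with Zbtb22 on the same strand, which was counted at 1871 to 2206 in all libraries.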

How the data were processed

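Bulk RNA of 9 RAW264.7 libraries was analysed, 3 per group, grouped by the treatment in the labels. Per the study's methods, a strand-specific kit was used, Trimmomatic trimmed the reads and HISAT2 aligned them, and uniquely mapped reads were counted with featureCounts. STAR 2.7.7a, DESeq2 and mm39 appear in the submitters' processing notes. Which aligner was used is therefore open, as is the strand setting at counting, not given in the sources used here.

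The deposited values are named FPKM, but the authors' deposited signal was found to be gene counts divided by 1 size factor per library. In each library 100% of values equalled a whole number of reads (within 0.001). In 3 libraries the value of 1 read lies within 1% of 1, where this check says little. Recovered reads summed to 37.6 to 64.4 M per library. Design and filter had been written for FPKM and were applied to these normalised counts.

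Genes reaching 10 in at least 3 libraries were tested (14808 of 43629) with limma 3.58.1 in R 4.3.3 on log2(normalised count + 1). Group means over all 9 libraries were fitted with an intensity trend. Tests were two-sided, with Benjamini-Hochberg adjustment over all genes tested, and the fit was first tested on simulated data. A fold is the ratio of group means, and a log2 change, which understates low genes, carries its standard error. The gain held is the LPS+NaBu value less the Control mean, as a percent of the LPS mean less the Control mean. edgeR 4.0.16 and DESeq2 1.42.0 were run on recovered reads as alternatives, beside other pseudocounts, filters, scalings, a replicate block and leaving out each library. Of the identifiers, 38984 matched GENCODE M39 (GRCm39), which gave gene coordinates and exon lengths. Promoters are RefSeq's (GRCm38.p6).

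The members and lists were chosen with earlier results of these data known. Named beside the 10 genes were every immunoproteasome gene, up to 5 genes of each other list that passed the test with the largest change in LPS+NaBu against LPS, and the first 2 in list order that missed it. Irf1 and Rfxap were added outside this rule, after their values were seen. The genes most like the 10, and most like Nlrc5, were the 5 with the highest Pearson correlation over the 9 libraries, of which 1 is not reported here.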

Additional observations from a re-analysis of the deposited data

How the results depend on the processing

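Of 630 repeats of the 30 log2 changes of the 10 genes (21 alternatives), 616 kept their direction and their side of the threshold, though not their size: the fall of B2m in LPS+NaBu against LPS ranged from -0.75 to -0.14 and that of Tapbp from -1.12 to -0.49. The exceptions concern LPS+NaBu against LPS. H2-K1 and H2-D1 turned to 0.1425 and 0.1780 with libraries scaled to the same sum and to 0.2185 and 0.4268 with quantile normalization, so that 2 of the 10 genes were called higher under each. In 9 repeats H2-K1 or H2-D1 became called lower. These were edgeR with TMM for both genes, H2-K1 with the filter of 50, with DESeq2 and with variance-stabilised values, H2-K1 without Control replicate 3 (adjusted p = 0.0476), without LPS replicate 3 (0.0488) or without LPS+NaBu replicate 1 (0.0239), and H2-D1 without LPS+NaBu replicate 1 (0.0455). H2-Q4 lost its call with the same sum. Of the 43 other pathway genes, 15 were called lower with LPS against Control under the same sum, 11 under quantile normalization and 8 under DESeq2, in place of 5, and 17 were called higher with LPS+NaBu against LPS under the same sum, in place of 11. The shares of all genes called under these settings were not compared, so these counts are not read as results about the lists. With quantile normalization, added for the ratios after seeing the data, none of the 15 log2 ratio differences changed sign, and 8 moved by more than the spread between replicates. The cause was not tested. All 10 genes were called higher with LPS against Control under all 21 alternatives, and 8 higher and 2 lower with LPS+NaBu against Control.

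Same-numbered libraries did not deviate together (correlations across genes from -0.0444 to 0.0202), so the replicate numbers were not read as pairs. With the replicate block, 10, 8 and 8 of the 10 genes were called higher with LPS, lower with LPS+NaBu against LPS and higher with LPS+NaBu against Control, as without it.

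Depth limits the low values most: H2-T3 and Ciita held at most 2 reads in any Control or LPS library.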

Other observations

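Among the genes whose pattern over the 9 libraries was most like the mean of the 10 standardised class I genes were Micall2, Tnip1, Bst2 and Pnp, each with a Pearson r of 0.999 over the 9 libraries. Tnip1 encodes an inhibitor of NF-kB signalling, and Bst2 the interferon-induced virus tether tetherin. Bst2 had means of 2540, 23645 and 6197 normalised counts in Control, LPS and LPS+NaBu, and Tnip1 had 4930, 18438 and 8385. Most like Nlrc5 were Clic4, Eif2ak2, Ikbke, Nckap1l and Mx2, of which Eif2ak2 (the antiviral kinase PKR) had means of 3315, 20698 and 9488, and Ikbke, a kinase of the interferon pathway, 1716, 14204 and 5957. The libraries fall into 3 groups, so such a likeness rests on the 3 group means and describes these libraries only.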
